A study of Mus musculus with 9 samples.

Results

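The Iroquois homeobox genes Irx1 to Irx6 were described in the developing mouse skull at E14.5. They were taken by name, as the 6 members of the family in mouse, and all 6 had a row among the 43548 gene identifiers of the expression table. All 6 passed the filter that left 18714 genes in the test, a mean of at least 0.5 FPKM over the 9 libraries. FPKM, the number of fragments scaled for transcript length and for library size, is the unit of all levels given. Irx4 and Irx6 passed the filter through the MCAGF8 cranial vault alone, since their means in both control groups were below 0.5 FPKM. Counts over the 6 genes therefore include 2 that could hardly pass without a difference, and values for the other 4 are given apart from them.

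RNAseq was performed on 9 libraries, 3 from each of 3 groups. The MCAGF8 cranial vault carried Msx2-Cre together with the CAGF8 allele, from which Cre releases Fgf8b behind the strong CAG promoter at the Rosa26 locus. Embryos of the same cross without Cre gave the control vault and, as a second control tissue, the cranial base. The cross used homozygous CAGF8 mice, so the controls carried the silent allele too, although their labels read wildtype, and the strain is labelled as mixed. Msx2-Cre acts in the surface ectoderm and not in the skull mesenchyme beneath it. The skin was peeled off before the vault was collected, and the base was the cartilaginous part that remained after removal of the brain. Each library was a pool of 3 of the 9 tissue samples of a group, so p-values measure the spread between pools. The paper describes the base as taken from the control embryos after their vault had been collected. Which embryos went into which pool is not stated, and the main test treats both control tissues as unpaired. In such bulk tissue, fewer cells of a type and less RNA per cell cannot be told apart.

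Iroquois genes encode transcription factors with a homeodomain of the TALE class, named for extra residues in a loop of the fold, and a short Iro box. In mammals they lie in a pair of clusters that arose by duplication, IrxA with Irx1, Irx2 and Irx4, and IrxB with Irx3, Irx5 and Irx6. Irx1 pairs with Irx3, Irx2 with Irx5 and Irx4 with Irx6 as the closest relatives across clusters. The genes pattern the nervous system, heart and limb, and mutations of human IRX5 cause Hamamy syndrome, a disorder with craniofacial malformation.

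The 6 genes share most of their homeobox, which bears on how far short reads can tell them apart. A stretch of 30 codons inside the homeobox, here cut from the GENCODE release 21 transcripts, encodes the same residues in each member. Of its 90 bases, 81 were identical in all 6 genes, and capitals mark the 9 positions that varied.
Irx1: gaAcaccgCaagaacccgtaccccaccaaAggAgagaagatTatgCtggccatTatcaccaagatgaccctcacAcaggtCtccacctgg
Irx2: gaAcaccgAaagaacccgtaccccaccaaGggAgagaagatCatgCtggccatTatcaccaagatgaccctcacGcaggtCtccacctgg
Irx3: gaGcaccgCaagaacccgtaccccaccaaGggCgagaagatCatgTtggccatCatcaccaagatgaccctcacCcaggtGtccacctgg
Irx4: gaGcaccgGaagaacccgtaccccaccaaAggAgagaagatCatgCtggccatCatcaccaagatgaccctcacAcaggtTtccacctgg
Irx5: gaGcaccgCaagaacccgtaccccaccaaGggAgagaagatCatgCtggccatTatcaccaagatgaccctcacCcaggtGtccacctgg
Irx6: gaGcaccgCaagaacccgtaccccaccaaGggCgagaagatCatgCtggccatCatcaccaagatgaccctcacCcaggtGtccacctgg
Across whole transcripts, the longest exact run shared by a pair was 23 to 88 bases, shorter than the 151-base reads. Irx3 and Irx6 shared the run of 88 bases, Irx2 and Irx5 one of 65 and Irx3 and Irx5 one of 50. How the authors treated reads that map to more than 1 place is not stated. Over the aligned proteins, 34.0% (Irx4 and Irx5) to 53.2% (Irx2 and Irx5) of residues were identical. Irx1 and Irx3 matched at 49.3% and Irx4 and Irx6 at 45.0%, the other pairs of relatives across the clusters.

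Facts of the whole table bear on these values as follows. FPKM summed to between 793249 and 1315981 per library, and 16006 to 17281 genes reached 1 FPKM. Read numbers are not given, so the depth is unknown and the 3 pools per group limit the precision. Fgf8 itself was at 13.5, 8.25 and 3.01 FPKM in the control vault and at 19.5, 9.43 and 13.0 in the MCAGF8 vault, which overlap, so it did not separate the labels. Dusp6, a feedback inhibitor of FGF signaling, was at 26.9, 32.6 and 28.7 FPKM in the control vault and at 47.2, 59.5 and 46.5 in the MCAGF8 vault without overlap (log2 difference 0.77 ± 0.19 SE, limma adjusted p = 0.205). One control base library, replicate 2, stood apart, with a cartilage marker sum of 11379 FPKM against 1120 and 1680 in replicates 1 and 3. Results that rest on it are given with and without it.

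In the MCAGF8 cranial vault, every Irx gene lay higher in all 3 libraries than in any control vault library. The 6 genes summed to 40.7, 37.7 and 53.0 FPKM in the control vault and to 121, 155 and 149 FPKM in the MCAGF8 vault. In the control base they summed to 26.5, 87.7 and 39.1 FPKM. The MCAGF8 sums thus lay above those of both control tissues, and the highest control sum was that of base replicate 2.

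**Figure D1:**
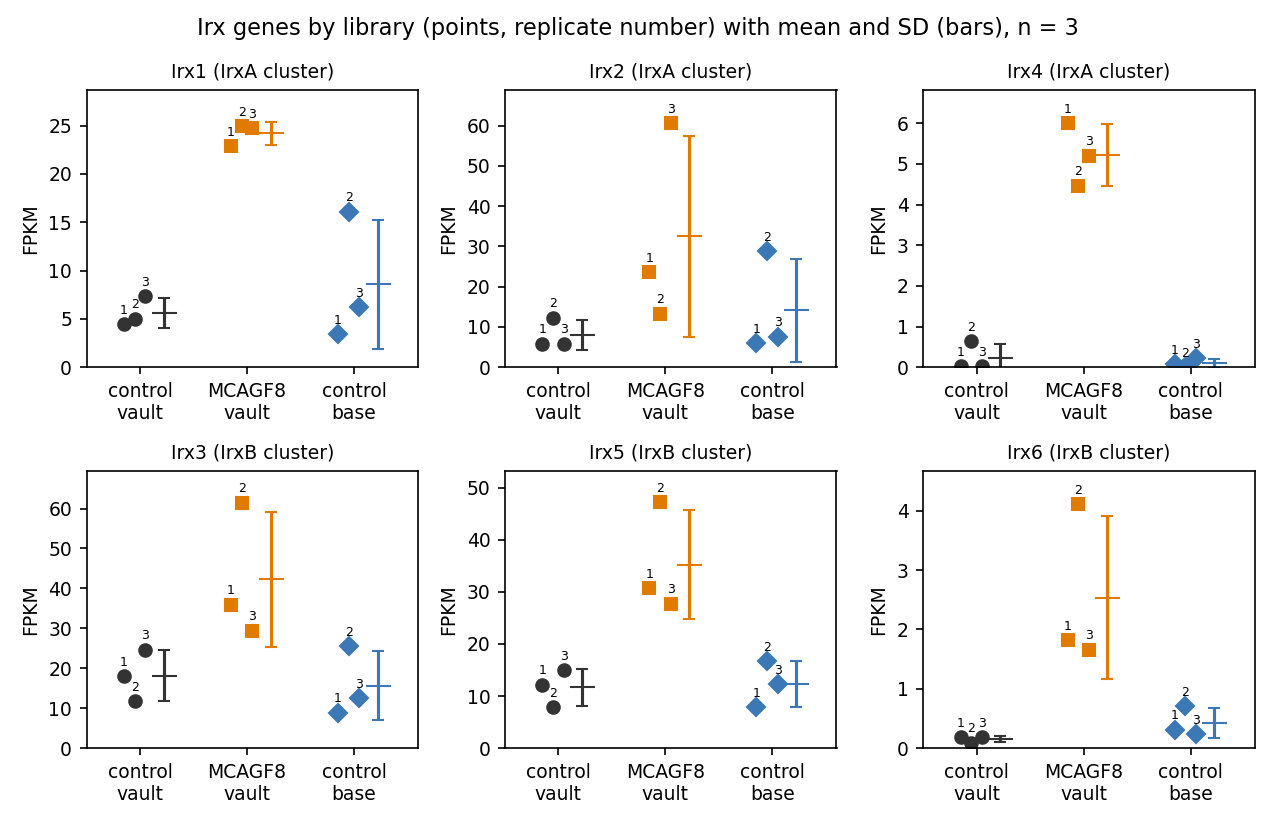
FPKM of each Irx gene (y axis, linear, starting at 0, own scale per panel) in the 3 groups (x axis), with 1 numbered point per library and the mean ± SD of 3 libraries beside it. All MCAGF8 vault points sit above all control vault points, and for Irx1, Irx2, Irx3, Irx5 and Irx6 the highest base point is replicate 2.

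Irx1 was at 4.45, 4.999 and 7.35 FPKM in the control vault (5.60 ± 1.54, SD, n = 3). In the MCAGF8 vault it was at 22.9, 24.9 and 24.7 FPKM (24.2 ± 1.15, SD, n = 3). The MCAGF8 libraries lay close together and well apart from the controls, a 4.32-fold ratio of means. In the control base Irx1 was at 3.39, 16.1 and 6.20 FPKM (8.56 ± 6.67, SD, n = 3). Base replicates 1 and 3 lay in or near the range of the control vault, and replicate 2 lay between the control and MCAGF8 vaults.

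Irx2 had the widest SD of the 6 genes in the MCAGF8 vault and in the base. It was at 5.87, 12.2 and 5.84 FPKM in the control vault (7.98 ± 3.69, SD, n = 3). It reached 23.6, 13.3 and 60.7 FPKM in the MCAGF8 vault (32.5 ± 24.9, SD, n = 3). The lowest MCAGF8 library lay just above the highest control, and the 4.08-fold ratio of means fell to 2.31-fold without MCAGF8 replicate 3. In the base it was at 5.94, 28.8 and 7.58 FPKM (14.1 ± 12.7, SD, n = 3), and replicate 2 there overlapped the MCAGF8 vault.

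Irx4, best known for its expression in the ventricles of the heart, was near the floor in both control tissues. It was at 0.0267, 0.634 and 0.0221 FPKM in the control vault (0.228 ± 0.352, SD, n = 3). In the MCAGF8 vault it was at 5.997, 4.46 and 5.20 FPKM (5.22 ± 0.768, SD, n = 3). In the base it was at 0.0791 and 0.221 FPKM in replicates 1 and 3 and was listed at 0 in replicate 2. The MCAGF8 libraries formed a tight group far from either control tissue. The ratio of means over the control vault was 22.9-fold, and it rose to 214-fold without control vault replicate 2, which held nearly all of the control signal, so the size of the ratio is poorly set. Without any 1 of the other vault libraries it was 15.8-fold to 24.6-fold.

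Of the IrxB genes, Irx3 was the most abundant. It was at 18.0, 11.8 and 24.6 FPKM in the control vault (18.1 ± 6.43, SD, n = 3). It was at 35.9, 61.4 and 29.4 FPKM in the MCAGF8 vault (42.2 ± 16.9, SD, n = 3). The lowest MCAGF8 library lay only a little above the highest control, and the ratio of means was 2.33-fold, the smallest of the 6. In the base Irx3 was at 8.93, 25.5 and 12.5 FPKM (15.7 ± 8.70, SD, n = 3), a range that covered that of the control vault.

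Irx5, the neighbor of Irx3, was at 12.2, 7.91 and 15.01 FPKM in the control vault (11.7 ± 3.58, SD, n = 3). It was at 30.6, 47.2 and 27.8 FPKM in the MCAGF8 vault (35.2 ± 10.5, SD, n = 3), 3.01-fold higher in the ratio of means. In the base it was at 7.84, 16.7 and 12.3 FPKM (12.3 ± 4.41, SD, n = 3). Both control tissues overlapped, and the MCAGF8 vault lay above both.

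Irx6 was low in every group. It was at 0.188, 0.0909 and 0.183 FPKM in the control vault (0.154 ± 0.0547, SD, n = 3) and at 1.82, 4.12 and 1.66 FPKM in the MCAGF8 vault (2.53 ± 1.37, SD, n = 3). The ratio of means was 16.4-fold, and 11.3-fold to 19.2-fold when any 1 of these libraries was left out. In the base Irx6 was at 0.309, 0.706 and 0.236 FPKM (0.417 ± 0.253, SD, n = 3). Each base library lay above each control vault library and below each MCAGF8 library.

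Differences between the MCAGF8 and control vaults were then tested by limma on log2(FPKM + 1), a scale that understates the change of low genes such as Irx4 and Irx6. Irx4 and Irx6 rose, and the other 4 lay higher without passing the threshold. Calls needed both p under 0.05 before adjustment and p under 0.1 after it (Benjamini-Hochberg, over all genes tested). By that rule 2 of 6 Irx genes were called higher, Irx4 and Irx6, against 0.23% of all genes tested. These are the 2 that passed the filter through the MCAGF8 group, and of the other 4 none was called. At an unadjusted p under 0.05 all 6 were higher, Irx1, Irx2, Irx3 and Irx5 among them, against 2.86% of all genes. All 6 also had libraries that did not overlap between the groups, against 9.9% of all genes. The 4 apart from Irx4 and Irx6 are among these. The study itself named Irx1 and Irx5 from these libraries, so their direction is not independent evidence.

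Irx4 had the largest log2 difference of the 6, 2.37 ± 0.25 (SE; limma adjusted p = 0.0146; 95% interval 1.82 to 2.92). Like Irx6, it passed the filter through the MCAGF8 group alone. It was called in 15 of 16 alternative settings, including all 9 in which 1 library was left out (limma adjusted p 0.00963 to 0.134 over the 16). The setting with a mean of at least 5 FPKM tested neither Irx4 nor Irx6 and is not among the 16. Irx6 differed by 1.55 ± 0.28 (SE; limma adjusted p = 0.0768; 95% interval 0.92 to 2.18). Its call was less stable, since it held in 5 of 16 settings and in 1 of the 9 with a library left out (adjusted p 0.0525 to 0.279), the one without base replicate 2.

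Irx1 differed by 1.96 ± 0.42 (SE; limma adjusted p = 0.135; 95% interval 1.00 to 2.91) and Irx5 by 1.52 ± 0.33 (SE; limma adjusted p = 0.130; 95% interval 0.79 to 2.25). Both missed the threshold with all 9 libraries and passed it without base replicate 2, at an adjusted p of 0.0210 for Irx1 and 0.0782 for Irx5. Irx1 also passed without base replicate 1 (adjusted p = 0.0861 by limma). The base libraries do not enter the vault difference itself but only the shared estimate of the spread. Irx1 was called in 3 of 17 settings (adjusted p 0.0210 to 0.515) and Irx5 in 1 of 17 (0.0782 to 0.465).

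Irx2 and Irx3 stayed short of the threshold in all 17 settings. The log2 difference was 1.71 ± 0.64 for Irx2 (SE; limma adjusted p = 0.590; 95% interval 0.28 to 3.14) and 1.16 ± 0.41 for Irx3 (SE; limma adjusted p = 0.530; 95% interval 0.24 to 2.09). For both the spread among libraries was wide, and the intervals did not reach 0. The intervals are not adjusted for the number of genes tested, and those of the 6 genes overlapped one another.

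**Figure D2:**
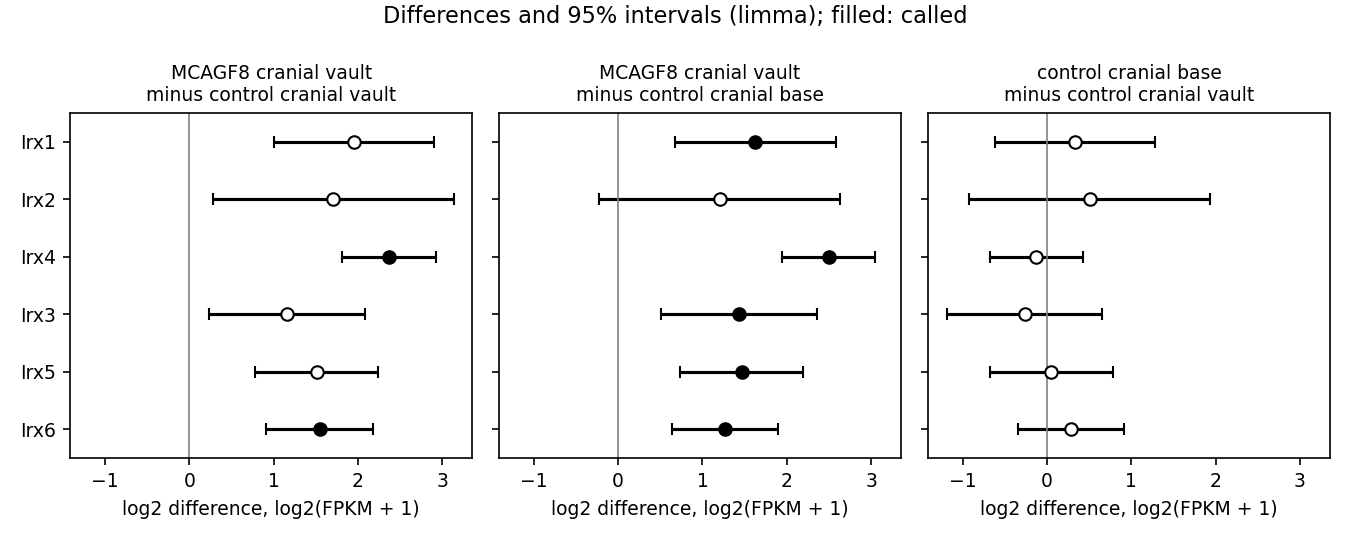
Difference in log2(FPKM + 1) (x axis) of each Irx gene (y axis) with its 95% limma interval in the 3 comparisons, filled where the gene was called. All 6 lie above 0 for the MCAGF8 vault against either control tissue, with Irx4 highest at 2.37 and 2.50, and every interval includes 0 for control base against control vault.

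Against the control cranial base, 5 of 6 Irx genes were called higher in the MCAGF8 vault, all but Irx2. The background was larger here, with 2.98% of all genes called higher, so the count of 5 is read against that share. Of the 5, 2 are again Irx4 and Irx6. Apart from them, Irx1, Irx3 and Irx5 were called and Irx2 was not. The libraries of the same 5 genes did not overlap, against 8.91% of all genes. This comparison shares the MCAGF8 libraries with the one before, so the 2 sets of differences are not separate evidence.

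Irx4 rose by 2.50 ± 0.25 on the log2 scale (SE; limma adjusted p = 0.00173) and Irx6 by 1.27 ± 0.28 (SE; limma adjusted p = 0.0341). Both were called in all 16 settings that tested them. The ratio of means was 52.2-fold for Irx4, from 34.8-fold to 132-fold when 1 library was left out, the highest without base replicate 3. For Irx6 it was 6.07-fold, and 9.30-fold without base replicate 2.

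Irx5 rose by 1.47 ± 0.33 (SE; limma adjusted p = 0.0336), a 2.87-fold ratio of means, and was called in 14 of 17 settings (adjusted p 0.0145 to 0.124). Irx1 rose by 1.63 ± 0.42 (SE; limma adjusted p = 0.0623) and Irx3 by 1.43 ± 0.41 (SE; limma adjusted p = 0.0861). Those calls were less stable, at 9 of 17 settings for Irx1 (adjusted p 0.00332 to 0.189) and 6 of 17 for Irx3 (0.0166 to 0.246). Irx1 had a 2.83-fold ratio of means that became 5.05-fold without base replicate 2. Without that library all 6 genes were called, Irx2 included.

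Irx2 did not pass, with a log2 difference of 1.20 ± 0.64 (SE; limma adjusted p = 0.335; 95% interval -0.22 to 2.63). Its 2.31-fold ratio of means became 4.81-fold without base replicate 2 and 1.31-fold without MCAGF8 replicate 3. A single library on either side thus set its size.

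Between the control tissues no Irx gene passed the test. By limma 0 of 6 were called in either direction in the control base against the control vault, against 3.06% of all genes, and 0 of 6 had an unadjusted p under 0.05. None was called in any alternative setting, the per-gene linear model without moderation included. The log2 differences ran from -0.27 for Irx3 (SE 0.41; 95% interval -1.19 to 0.66) to 0.50 for Irx2 (SE 0.64; 95% interval -0.93 to 1.93), so differences of more than 2-fold were within the intervals of both. Irx1 differed by 0.33 (95% interval -0.62 to 1.28), Irx4 by -0.13 (-0.68 to 0.43), Irx5 by 0.05 (-0.68 to 0.78) and Irx6 by 0.28 (-0.35 to 0.91). Only Irx6 had libraries that did not overlap, higher in the base, as did 8.86% of all genes. Without base replicate 2 the sign turned for Irx1 (-0.21), Irx2 (-0.15) and Irx5 (-0.19).

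The order of the levels, which FPKM allows since they are scaled by length, was Irx3, Irx5, Irx2, Irx1, Irx4 and Irx6 from highest to lowest mean in both vault groups. In the control base Irx2 came before Irx5 and Irx6 before Irx4. Neighbors among the 4 abundant genes overlapped in level in every group, although Irx3 was above Irx5 within each of the 9 libraries. The step from Irx1 down to Irx4 or Irx6 was without overlap in each group. Irx4 and Irx6 overlapped in the control vault, while Irx4 was above Irx6 in each MCAGF8 library and below it in each base library.

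The makeup of the family also differed between the groups. Irx6 was 1.04, 0.772 and 0.744% of the Irx3 level in the control vault and 5.06, 6.70 and 5.66% in the MCAGF8 vault. In the base it was 3.46, 2.77 and 1.88%, between the vault groups and without overlap with either. The ratio of Irx3 to Irx5 was 1.48, 1.49 and 1.64 in the control vault, 1.17, 1.30 and 1.06 in the MCAGF8 vault and 1.14, 1.53 and 1.02 in the base. The vault groups were apart in this ratio as well, and the base overlapped both. The share of the IrxA genes in the Irx sum was 25.4, 47.5 and 24.9% in the control vault and 43.4, 27.5 and 60.7% in the MCAGF8 vault, and these overlapped. These ratios were chosen after their values could be seen and carry no test.

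The IrxA cluster lies on chromosome 13 and the IrxB cluster on chromosome 8 (GRCm38, GENCODE release 21 coordinates). Irx1 is at chr13:71957921-71963723 on the minus strand, Irx2 at chr13:72628820-72634198 and Irx4 at chr13:73260479-73269608 on the plus strand. Irx3 is at chr8:91798525-91802067 on the minus strand, Irx5 at chr8:92357625-92376286 and Irx6 at chr8:92674288-92680956 on the plus strand. IrxA spans 1311.688 kb and IrxB 882.432 kb, with 298.001 kb (Irx5 to Irx6) to 665.096 kb (Irx1 to Irx2) between neighboring members.

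None of the other genes in and beside the clusters was called in the MCAGF8 vault against the control vault, where 0.604% of all genes were called in either direction, so a count of 0 among so few is near the background. Inside IrxA, 10 further genes are annotated and 2 could be tested, the pseudogene Rpl9-ps4 (log2 difference -0.50, limma adjusted p = 0.965) and the noncoding Gm20554 (1.43, limma adjusted p = 0.524). Gm20554 lies between Irx1 and Irx2, and its mean was 0.626 ± 0.226 FPKM in the control vault and 3.54 ± 1.67 FPKM in the MCAGF8 vault (SD, n = 3). Inside IrxB, 13 further genes are annotated and 3 could be tested, Irx3os (0.61, limma adjusted p = 0.955), Crnde (0.74, limma adjusted p = 0.957) and Gm21817 (0.36, limma adjusted p = 0.969), none called. Irx3os overlaps Irx3 on the other strand, and whether strand was used in counting is not stated, so reads of this pair may not be told apart.

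Of the 3 protein-coding genes on each side, 0 of 6 at IrxA and 0 of 6 at IrxB were called between the vaults. At IrxA the differences ran from -1.01 (Adamts16, a metalloprotease) to 0.35 (Lpcat1), with Med10, Ice1, Ndufs6 and Mrpl36 between. At IrxB they ran from 0.05 (Aktip) to 0.60 (Lpcat2). Fto, whose introns hold regulatory elements that contact Irx3, differed by 0.07 (limma adjusted p = 0.990), with 80.1 ± 14.4 FPKM in the control vault and 85.0 ± 23.2 FPKM in the MCAGF8 vault. Mmp2, a gelatinase beyond Irx6, was called higher in the MCAGF8 vault than in the base (0.92, limma adjusted p = 0.0824) and not against the control vault (0.44). Rpgrip1l (0.32) and Capns2 (0.34) completed the set.

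**Figure D3:**
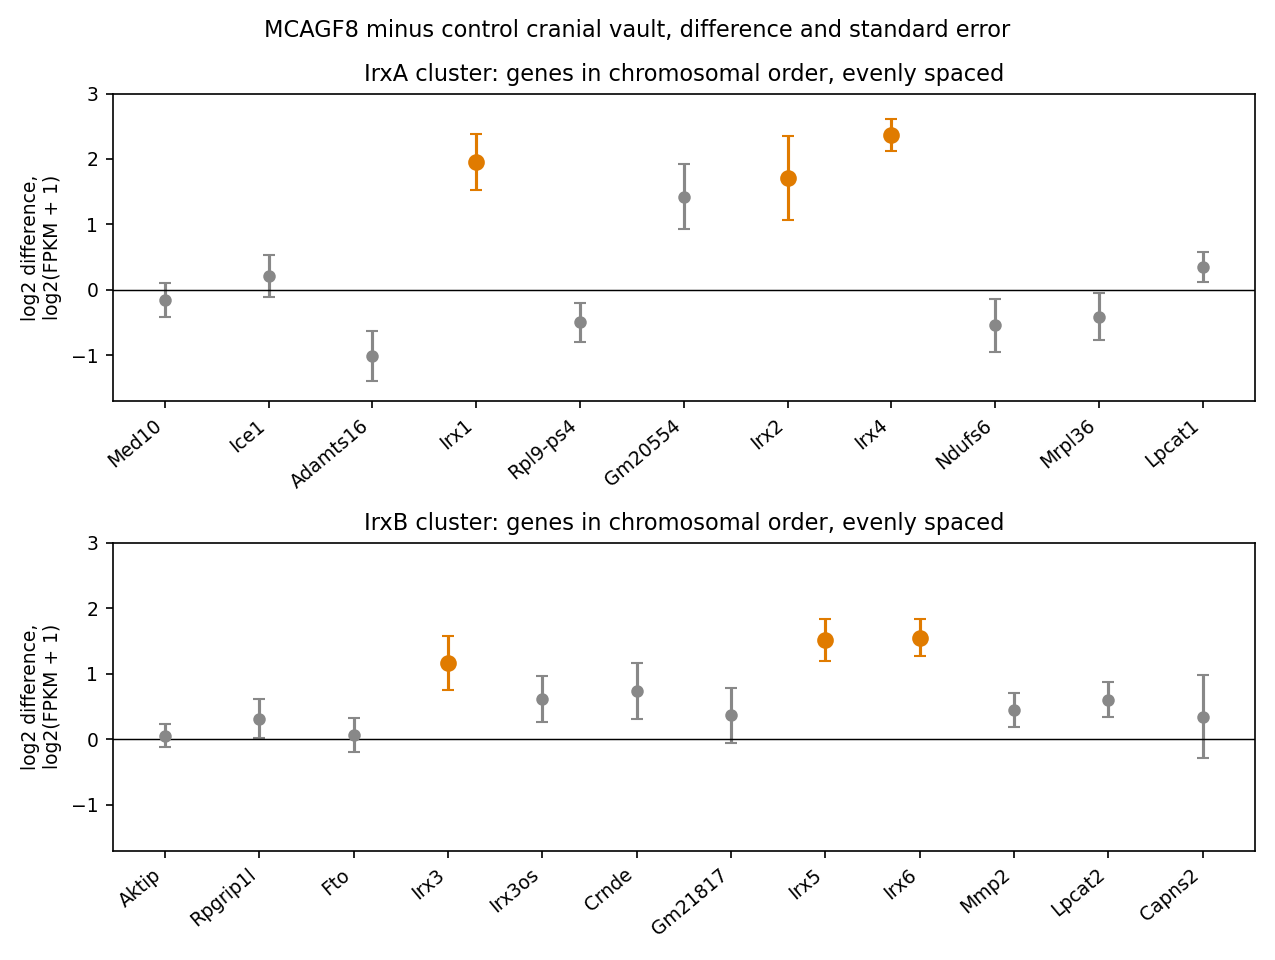
Difference in log2(FPKM + 1) between MCAGF8 and control vault with its standard error (y axis) for the tested genes in and beside each Irx cluster, in chromosomal order and evenly spaced (x axis), Irx genes in orange. The Irx genes lie between 1.16 and 2.37, and the other genes between -1.01 and 1.43, with Gm20554 the one that lies among the Irx genes.

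Promoters of Irx2, Irx3 and Irx4, as windows of 300 bases around the RefSeq start of the gene, were in the RefSeq promoter table (GRCm38.p6). For Irx3 that start lies inside the GENCODE gene given above, so its window falls wholly within that gene, while those of Irx2 and Irx4 span the GENCODE start. They are shown for Irx3, the member with the highest group means, and Irx4, the member with the largest difference on the log2 scale, as the ends of the range in CpG content, with each CpG in capitals. The Irx3 window, chr8:91801605-91801904 on the minus strand, holds 14 CpG at 56% GC, and the Irx4 window, chr13:73260247-73260546 on the plus strand, holds 31 CpG at 70.7% GC.
Irx3: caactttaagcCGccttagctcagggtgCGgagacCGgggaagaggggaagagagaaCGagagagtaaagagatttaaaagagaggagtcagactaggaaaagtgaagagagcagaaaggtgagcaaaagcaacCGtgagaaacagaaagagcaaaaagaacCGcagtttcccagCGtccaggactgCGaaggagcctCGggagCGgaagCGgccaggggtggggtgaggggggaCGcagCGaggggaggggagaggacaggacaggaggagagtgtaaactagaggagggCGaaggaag
Irx4: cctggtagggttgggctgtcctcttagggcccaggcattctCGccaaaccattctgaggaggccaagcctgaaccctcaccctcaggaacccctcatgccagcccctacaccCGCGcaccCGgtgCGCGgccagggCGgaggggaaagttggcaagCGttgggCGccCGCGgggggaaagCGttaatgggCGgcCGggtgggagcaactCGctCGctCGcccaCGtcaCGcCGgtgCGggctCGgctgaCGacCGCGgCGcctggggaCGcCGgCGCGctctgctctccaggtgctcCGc
The Irx2 window holds 25 CpG. The median of 32851 promoters was 7 CpG and 52.7% GC, and 63.7% of them held fewer CpG than Irx3 and 89.4% fewer than Irx4. TATAAA (in 13.6% of promoters), CCGGAA, the core of many ETS sites (14.9%), and ATCAAAG, a TCF/LEF site (3.73%), were searched on both strands and had 0 matches in the 3 windows. The letters are simply not in these windows, which says nothing of the factors.

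How alike the 6 genes were across libraries was measured as the root-mean-square difference of log2(FPKM + 1) after each gene was centred on its own mean, over the 9 libraries, with 0 for an identical profile. Since the libraries share their groups, this is a description with no test. Irx3 and Irx5 were the most alike pair (0.22), followed by Irx5 and Irx6 (0.27), so the IrxB members lay together. Irx1 was nearest to Irx5 (0.39) and at 0.64 from its neighbor Irx2. Irx2 was at 0.89 to 0.97 from the IrxB genes and Irx4 at 0.67 to 0.92 from the other members.

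**Figure D4:**
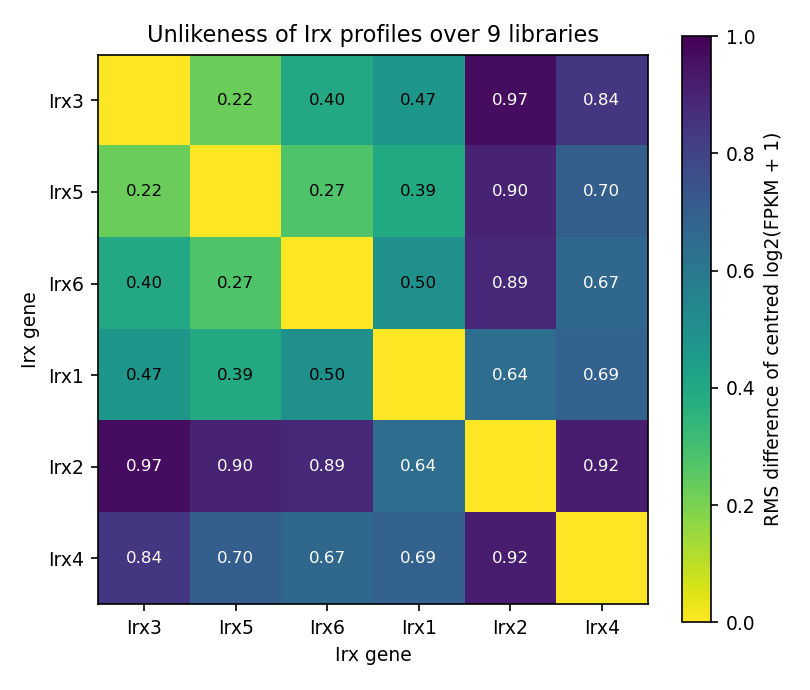
Root-mean-square difference of centred log2(FPKM + 1) over 9 libraries between each pair of Irx genes (rows and columns), with lighter colors for more alike profiles. The 3 IrxB genes form the lightest block at 0.22 to 0.40, and Irx2 stands apart from them at 0.89 to 0.97.

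Among all genes with a mean of at least 5 FPKM, the 3 with profiles nearest to each Irx gene were listed. For Irx1 they were Lef1 (0.21), a transcription factor of the Wnt pathway, Pou3f3 (0.33), a POU factor, and Irx5. Lef1 had means of 5.51, 19.3 and 8.11 FPKM in the control vault, MCAGF8 vault and control base. For Irx3 they were Irx5, Gdf10 (0.35), a ligand of the TGF-beta family, and Axin2 (0.37), a feedback inhibitor of Wnt signaling. Irx5 had Irx3, Lef1 (0.34) and Gdf10 (0.34), and Irx6 had Irx5, Stk32b (0.30) and Prom1 (0.34). The profiles nearest to the abundant members thus included other Irx genes, except for Irx2.

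Irx2 had no close match, with Colgalt2 (0.54), Col7a1 (0.55), the collagen of the anchoring fibrils beneath the epidermis, and Nebl (0.58) nearest. Irx4 had Tmem132c (0.24), Cyp27a1 (0.42), a sterol hydroxylase, and Twist2 (0.50), a factor of the dermis. Tmem132c had means of 14.9, 80.8 and 15.6 FPKM in the control vault, MCAGF8 vault and control base, and was itself called between the vaults (log2 difference 2.36, limma adjusted p = 0.0144). Cyp27a1 was called there too (1.74, limma adjusted p = 0.0969), while Lef1 (1.63, limma adjusted p = 0.238), Pou3f3 (2.46, limma adjusted p = 0.123), Axin2 (0.92, limma adjusted p = 0.181) and Twist2 (1.62, limma adjusted p = 0.110) were not. These genes were picked for their likeness to an Irx gene over the same 9 libraries, so their differences are not separate evidence.

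Of the homeobox genes of the TALE class outside the Iroquois family, 11 were taken as a list, with members of the Meis, Pbx, Pknox and Tgif groups and Mkx. In the MCAGF8 vault against the control vault 0 of 11 were called in either direction, against 0.604% of all genes tested, 8 lay higher and 3 lower, and the median log2 difference was 0.09, beside -0.01 over all genes. Meis1, a cofactor of Hox proteins, was at 12.02 ± 5.54 and 28.2 ± 7.10 FPKM (SD, n = 3; log2 difference 1.22, limma adjusted p = 0.215), and Mkx, a tendon factor, at 44.8 ± 5.46 and 25.2 ± 4.46 FPKM (-0.81, limma adjusted p = 0.369). Against the base, Pbx3 alone of the 11 was called, against 8.39% of all genes in either direction, 0.85 higher on the log2 scale in the MCAGF8 vault (limma adjusted p = 0.0317; median of the 11 -0.05, of all genes -0.07). Between the control tissues no Irx gene passed the test. Of the 11, 1 was called higher in the base and 1 lower there, against 3.06% of all genes in either direction. These were Meis1 (1.29, limma adjusted p = 0.0807) and Mkx (-1.37, limma adjusted p = 0.0305), with a median of 0.06 for the 11 and 0.07 for all genes.

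Markers of other tissues moved with the groups as well. The 13 epidermis markers summed to 53.3, 123 and 35.6 FPKM in the control vault and to 482, 449 and 1102 FPKM in the MCAGF8 vault, from which the skin had been peeled. Of them 12 lay higher there (median log2 difference 2.62), beside 9082 of all 18714 genes tested. The 3 called higher were Krt5, Pkp1 and Grhl3, against 0.23% of all genes. Base replicates 1 and 3 had epidermal sums of 597 and 800 FPKM, above those of MCAGF8 replicates 1 and 2. Krt15 made up 274 and 300 FPKM of these base sums, against 72.2 and 64.4 FPKM in MCAGF8 replicates 1 and 2. Krt5 (39.2 and 117 FPKM), Krt1 (2.00 and 3.30 FPKM) and Grhl3 (1.44 and 3.02 FPKM) were lower in base replicates 1 and 3 than in every MCAGF8 library. Krt15 and Epcam (41.3 and 46.6 FPKM) were higher there than in every MCAGF8 library. The remaining markers, among them Trp63, Perp and Sfn, each had at least 1 of these base values within the MCAGF8 range. The sums thus held different shares of the markers. Irx4 in these base libraries was at 0.0791 and 0.221 FPKM, and the other Irx genes there lay below every MCAGF8 library. None of the 13 markers was at 0 throughout a group. Irx2 in the MCAGF8 vault was highest in replicate 3, the library with the highest epidermal sum. In the control vault Irx2 (12.2 FPKM) and Irx4 (0.634 FPKM) were highest in replicate 2, which had the highest epidermal sum of that group. In the base Irx2 was highest in replicate 2, which had the lowest epidermal sum of the base, 122 FPKM. Irx4 was highest in MCAGF8 replicate 1 and base replicate 3, with epidermal sums of 482 and 800 FPKM. The part of epidermal tissue in the Irx levels was not tested.

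The 15 cartilage markers summed to 2459, 3370 and 2347 FPKM in the control vault, to 3179, 5105 and 5827 in the MCAGF8 vault and to 1120, 11379 and 1680 in the base. Base replicates 1 and 3, although labelled as cranial base and taken as cartilage, thus had lower cartilage sums than any vault library. Col10a1, from the hypertrophic cartilage list, was at 115, 658 and 74.2 FPKM in the base and at most 2.05 FPKM in any vault library. It was called higher in the base than in the control vault (log2 difference 6.20, limma adjusted p = 0.00386). Of the 15 cartilage markers 14 lay higher in the MCAGF8 than in the control vault (median log2 difference 0.72), beside 9082 of all 18714 genes tested. By the same rule 0 were called, against 0.604% of all genes in either direction. Base replicate 2, with the highest cartilage sum of the 9 libraries, had Irx1, Irx2, Irx3, Irx5 and Irx6 above the other base libraries and Irx4 listed at 0. Its Irx1, Irx3, Irx5 and Irx6 lay below every MCAGF8 library. In control vault replicate 2, with the highest cartilage sum of its group, Irx3, Irx5 and Irx6 were the lowest of that group. Irx2 and Irx4 were the highest of the group there, and Irx1 was in the middle. The part of cartilage content in the Irx levels was not tested.

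**Figure D5:**
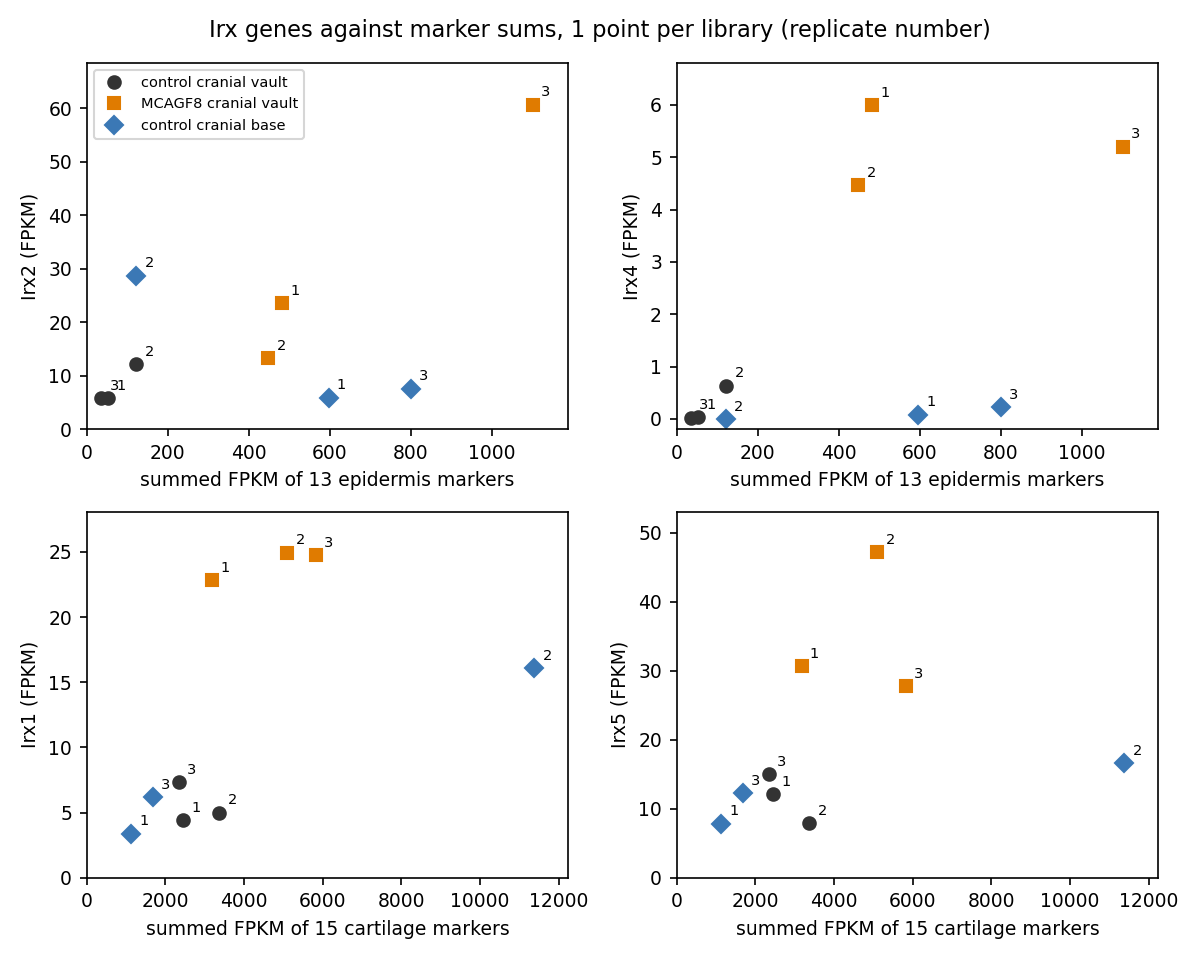
FPKM of Irx2 and Irx4 against the summed FPKM of 13 epidermis markers, and of Irx1 and Irx5 against that of 15 cartilage markers (linear axes, 1 numbered point per library). Base libraries with epidermal sums of 597 and 800 lie near 0 for Irx4, and base replicate 2, at a cartilage sum of 11379, lies below all MCAGF8 libraries for Irx1 and Irx5.

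The tissue labels were checked against the remaining lists. Osteoblast markers, which define the forming vault, summed to 1307 to 3180 FPKM in the control vault and to 103 to 203 FPKM in the MCAGF8 vault, with 6 of 9 called lower, against 0.374% of all genes, bone sialoprotein (Ibsp) and osteopontin (Spp1) among them (median log2 difference -3.79). Skeletal muscle markers summed to 1113 to 6844 FPKM in the control vault and to 28.2 to 287 FPKM in the MCAGF8 vault. Of these markers 7 of 11 were called lower, against 0.374% of all genes (median -4.20). These sums thus moved between the same groups as the Irx genes did. Dermis markers summed to 1326 to 1753 FPKM in the control vault, 1981 to 2245 FPKM in the MCAGF8 vault and 624 to 1243 FPKM in the base, so the MCAGF8 vault lay above both control tissues without overlap, as the sum of the Irx genes did. The members were unlike in this. In the control and MCAGF8 vaults the means were 403 and 866 FPKM for Crabp1, 992 and 1008 for Lum and 40.6 and 35.9 for Dpt. Twist2 had means of 35.0 and 109 FPKM there, and Tbx15 of 48.8 and 76.2. Between the vaults 0 of 5 dermis markers were called (median 0.64). Called counts were also 0 for hypertrophic cartilage (of 5; median -1.11), meninges (of 6; -0.20), erythroid cells (of 7; -0.04) and endothelium (of 6; 0.25). Of 8 brain markers tested Dcx was called lower (median -0.89). Over all genes 0.604% were called between the vaults in either direction. Against the base, where 5 Irx genes were called higher, 3 of 5 dermis, 3 of 6 endothelium and 2 of 7 erythroid markers were called higher too, against 2.98% of all genes. In that comparison 11 of 11 muscle, 6 of 8 brain, 4 of 9 osteoblast, 3 of 5 hypertrophic cartilage, 1 of 15 cartilage and 1 of 13 epidermis markers were called lower in the MCAGF8 vault, against 5.41% of all genes, and 0 of 6 meninges markers in either direction. The part of these tissues in the Irx differences was not tested.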

How the data were processed

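RNA from the MCAGF8 cranial vault, control cranial vault and control cranial base at E14.5 was sequenced in 9 libraries, each a pool of 3 samples. The authors prepared libraries with the TruSeq stranded mRNA kit, obtained single-end reads of 151 bases on a HiSeq4000, mapped them with gSNAP and estimated FPKM with Cufflinks. The deposited table holds FPKM per Ensembl gene. Build, annotation and program versions: not given in the sources used here. No read counts are used here, so the depth is unknown.

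From these values, 63 rows with a repeated identifier were added to the first row of that gene, and 9 genes with a placeholder in 17 cells were left out, none of them an Irx gene. Symbols were matched for 42375 of 43548 identifiers. The 18714 genes that averaged 0.5 FPKM or more entered 1 fit of log2(FPKM + 1) over all 9 libraries by limma 3.58.1 under R 4.3.3, with moderated, trended variances and two-sided tests. Calls required p under 0.05 and, after Benjamini-Hochberg adjustment over all genes tested, p under 0.1. Ratios are of mean FPKM with no pseudocount. The fit was first tested on simulated data. Coding sequences were aligned with mafft 7.526, and Python 3.11.15 with numpy 2.4.6, pandas 2.3.3 and matplotlib 3.10.9 served for tables and plots.

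The genes named are the 6 Irx genes, genes in and 3 beside each cluster, the 3 nearest profiles of each Irx gene, Fgf8 and Dusp6, and, from lists of other TALE homeobox, cartilage, hypertrophic cartilage, osteoblast, epidermis, dermis, brain, meninges, skeletal muscle, erythroid and endothelium genes, some of those called or most abundant. One gene of the TALE list is not reported here. Members and lists were chosen with earlier results of these data known. Alternatives were a pseudocount of 0.1, no filter or a mean of at least 5 FPKM, quantile normalization, rescaling to a common sum, only the libraries of both groups compared, the replicate number as a block, no moderation, an unadjusted threshold, and leaving out each library in turn.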

Additional observations from a re-analysis of the deposited data

How the results depend on the processing

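Every Irx gene tested was higher in the MCAGF8 than in the control vault, and than in the base, under every alternative run, while calls varied. Between the vaults 2 Irx genes were called, 1 with no filter, 0 at a mean of at least 5 FPKM (Irx4 and Irx6 are then not tested), 3 with only the libraries of both groups (Irx1 added, adjusted p 0.0336), 1 with the replicate number as a block, 0 without moderation, 6 at the unadjusted threshold and 1 to 4 with a library left out, the most without base replicate 2. Against the base 5 were called, 3 with no filter, 3 at a mean of at least 5 FPKM, 3 with only the libraries of both groups, 2 without moderation and 2 to 6 with a library left out. Between the control tissues 0 were called in all settings. There the sign turned for Irx5 with quantile normalization (-0.063), for Irx3 without base replicate 1 (0.042), for Irx1 (-0.21), Irx2 (-0.15) and Irx5 (-0.19) without base replicate 2, and for Irx4 (0.10) and Irx5 (-0.19) without control vault replicate 2. With a library left out these differences ran from -0.21 to 0.77 for Irx1, -0.15 to 0.90 for Irx2, -0.67 to 0.04 for Irx3, -0.24 to 0.10 for Irx4 and -0.19 to 0.31 for Irx5. With a pseudocount of 0.1 the Irx4 difference between the vaults was 4.56 and that of Irx6 3.28.

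Over all genes, 113 were called between the vaults, 191 with a pseudocount of 0.1, 66 with no filter, 71 at a mean of at least 5 FPKM, 174 with only both groups, 19 with the block, 0 without moderation, 1186 unadjusted and 11 to 231 with a library left out. Against the base 1571 were called, 834 at a mean of at least 5 FPKM, 875 with only both groups, 918 with the block, 869 without moderation, 3675 unadjusted and 559 to 4580 with a library left out. Between the control tissues 573 were called, 291 at a mean of at least 5 FPKM, 108 with only both groups, 234 with the block, 257 without moderation, 2396 unadjusted and 132 to 1322 with a library left out. The cause of these shifts was not tested.

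Deviations of same-numbered libraries from their group means correlated at -0.55 to 0.37. Libraries with unlike replicate numbers were not compared in this way. With 3 libraries per group, these values alone cannot decide whether the replicate numbers pair the libraries. With the replicate block the Irx4 call between the vaults held and that of Irx6 was lost (adjusted p 0.215), as was that of Irx3 against the base (0.149). FPKM give no read counts, so values near 0, as of Irx4 and Irx6 in the controls, carry no counting error here, and with 3 pools per group the intervals printed with each difference limit what could be seen.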
